A study of Homo sapiens with 16 samples.

Results

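Chromosome 19 carries the largest collection of zinc finger genes in the human genome, and 52 of them, all named ZNF, are described here. They were chosen by name as genes of 3 clusters: 24 at 19p12, 15 at 19q13.12 and 13 at 19q13.4. In the RefSeq gene table of assembly GRCh38.p14 the 19p12 genes ran from ZNF101 to ZNF254 (chr19:19668153-24129968), the 19q13.12 genes from ZNF529 to ZNF573 (chr19:36543613-37779586) and the 19q13.4 genes from ZNF83 to ZNF331 (chr19:52612377-53580269). Of the 52 genes, 51 had a probe set with a single gene symbol on the arrays, among 19775 such genes in all. The brightest such probe set stood for each gene. Genes entered the tests if at least 2 of the 16 arrays gave a signal at or above that array's median, as was the case for 43 of the 51 (19 at 19p12, 13 at 19q13.12 and 11 at 19q13.4), among 14038 genes tested.

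Most genes of these clusters encode proteins with a row of C2H2 zinc fingers, which bind DNA, behind a KRAB domain. The KRAB domain recruits TRIM28 (KAP1), which brings in the histone H3 lysine 9 methyltransferase SETDB1, heterochromatin protein 1 and DNA methylation. Many such proteins bind transposable elements: ZNF91 represses SVA elements and ZNF93 represses L1 elements in primate cells. The clusters grew by tandem duplication, so neighbouring genes share sequence in their zinc finger exons, and some probe sets cannot be expected to tell neighbours apart.

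Affymetrix U133 Plus 2.0 arrays, which cover the whole genome, measured RNA in 4 established lines of human acute myeloid leukaemia (AML). They were the monocytic AML-193, the immature KG1a, the promyelocytic HL60, and HNT-34. All cells grew in a light SILAC medium made for mass spectrometry. They received 0.5 µM azacitidine (AZA) or the vehicle DMSO on each of 3 days and then grew for 4 days without drug. Cells incorporate AZA in place of cytidine, and in DNA it binds and depletes DNA methyltransferases, so that methylation is lost as cells divide. This gave 8 groups, AZA and vehicle in AML-193, HNT-34, KG1a and HL60, with 2 arrays in each. Whether the arrays of a group stem from separate cultures is not stated in the labels, and p-values therefore cover nothing beyond array-to-array spread within a group, which can be purely technical.

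On all 16 arrays the blood cell markers PTPRC (10.91 to 13.25, log2 signal) and SPI1 (8.74 to 10.20) were above the array median of 6.73, as were CD34, CSF3R, LYZ and ITGAM. KIT and ANPEP reached it on 12 arrays, MPO on 11 and CD14 on 6. Of 11 measured markers of other cell types, MS4A1, EPCAM and KRT19 were below the median on all arrays, while CD3E, KRT18, COL1A1, PECAM1 and HBB were above it on all 16. The array controls for ACTB and GAPDH have probe sets at both ends of the transcript, and the signal at the 3′ end minus that at the 5′ end is a sign of RNA quality. It was 0.229 and 0.168 on the AML-193 AZA arrays, against 1.59 and 0.939 on the AML-193 vehicle arrays. It was 0.837 and 0.607 on the HL60 AZA arrays, against 0.0361 and 0.0526 on the HL60 vehicle arrays. In HNT-34 and KG1a it lay between -0.111 and 0.122 on all arrays. In AML-193 and HL60 this sign therefore differed with treatment, in opposite directions, and fits with it as a covariate are given beside the counts of those lines.

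The promoters of the clusters differed in CG content, the sequence at which DNA methylation sits. RefSeq promoters (GRCh38.p14, 250 bases before to 50 bases after the start) were at hand for 46 of the 52 genes. The 8 below were picked for wide changes, or as a pair of similar promoters with changes of unlike size in AML-193 (ZNF430 and ZNF431). The others belong to the gene that fell in 3 lines (ZNF607) and to genes dim in some lines and bright in another (ZNF257 and ZNF677). CG dinucleotides are in capitals, and each sequence reads 5′ to 3′ on the strand of its gene.
ZNF682: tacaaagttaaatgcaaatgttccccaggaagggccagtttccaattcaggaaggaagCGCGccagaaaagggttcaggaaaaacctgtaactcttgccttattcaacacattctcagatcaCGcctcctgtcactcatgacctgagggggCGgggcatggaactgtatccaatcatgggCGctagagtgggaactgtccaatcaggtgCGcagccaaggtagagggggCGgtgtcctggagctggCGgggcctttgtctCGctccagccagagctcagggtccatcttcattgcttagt
ZNF431: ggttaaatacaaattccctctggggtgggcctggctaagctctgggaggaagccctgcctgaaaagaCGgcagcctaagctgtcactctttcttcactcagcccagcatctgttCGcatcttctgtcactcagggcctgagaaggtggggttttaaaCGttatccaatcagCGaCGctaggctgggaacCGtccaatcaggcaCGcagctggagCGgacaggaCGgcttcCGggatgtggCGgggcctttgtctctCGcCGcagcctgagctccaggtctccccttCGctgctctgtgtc
ZNF430: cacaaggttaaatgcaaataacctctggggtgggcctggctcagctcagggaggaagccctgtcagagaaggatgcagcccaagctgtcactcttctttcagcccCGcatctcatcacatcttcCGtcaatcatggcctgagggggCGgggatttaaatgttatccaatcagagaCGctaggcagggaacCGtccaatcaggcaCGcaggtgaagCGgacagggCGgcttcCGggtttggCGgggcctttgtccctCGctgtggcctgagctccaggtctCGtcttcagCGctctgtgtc
ZNF257: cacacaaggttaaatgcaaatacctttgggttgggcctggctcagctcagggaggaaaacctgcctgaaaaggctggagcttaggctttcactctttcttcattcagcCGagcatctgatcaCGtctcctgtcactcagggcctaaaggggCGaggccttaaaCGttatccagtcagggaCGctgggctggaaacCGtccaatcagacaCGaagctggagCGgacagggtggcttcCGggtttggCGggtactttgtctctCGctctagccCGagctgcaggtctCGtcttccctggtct
ZNF101: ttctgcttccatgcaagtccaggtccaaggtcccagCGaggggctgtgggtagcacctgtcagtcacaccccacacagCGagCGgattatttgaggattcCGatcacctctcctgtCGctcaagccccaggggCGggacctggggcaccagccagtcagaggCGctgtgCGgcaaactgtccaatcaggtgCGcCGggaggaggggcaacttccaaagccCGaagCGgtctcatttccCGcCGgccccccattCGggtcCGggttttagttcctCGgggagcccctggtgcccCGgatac
ZNF607: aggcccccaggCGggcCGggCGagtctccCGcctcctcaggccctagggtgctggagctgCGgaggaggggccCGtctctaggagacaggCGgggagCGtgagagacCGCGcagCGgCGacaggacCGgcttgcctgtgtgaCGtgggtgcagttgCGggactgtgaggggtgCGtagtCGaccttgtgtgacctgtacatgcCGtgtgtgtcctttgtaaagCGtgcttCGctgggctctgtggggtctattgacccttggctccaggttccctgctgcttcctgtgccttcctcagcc
ZNF468: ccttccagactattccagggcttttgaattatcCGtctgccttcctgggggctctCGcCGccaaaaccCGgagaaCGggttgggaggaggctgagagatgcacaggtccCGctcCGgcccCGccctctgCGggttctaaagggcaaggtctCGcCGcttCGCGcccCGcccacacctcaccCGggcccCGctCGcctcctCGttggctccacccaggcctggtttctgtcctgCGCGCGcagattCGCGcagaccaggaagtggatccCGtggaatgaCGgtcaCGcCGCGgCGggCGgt
ZNF677: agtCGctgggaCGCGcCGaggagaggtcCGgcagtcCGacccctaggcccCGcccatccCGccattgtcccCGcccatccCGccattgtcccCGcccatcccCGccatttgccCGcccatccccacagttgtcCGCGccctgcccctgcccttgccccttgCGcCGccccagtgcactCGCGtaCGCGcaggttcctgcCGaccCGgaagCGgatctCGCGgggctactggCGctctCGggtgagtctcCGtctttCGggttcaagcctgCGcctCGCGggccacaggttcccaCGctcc

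In GRCh38.p14 these windows lie at chr19:20039456-20039755 on the minus strand for ZNF682, chr19:21141790-21142089 on the plus strand for ZNF431, chr19:21020407-21020706 on the plus strand for ZNF430 and chr19:22052234-22052533 on the plus strand for ZNF257. Those of the other 4 genes lie at chr19:19668589-19668888 on the plus strand for ZNF101, chr19:37719139-37719438 on the minus strand for ZNF607, chr19:52857570-52857869 on the minus strand for ZNF468 and chr19:53254774-53255073 on the minus strand for ZNF677. The promoter of ZNF682 holds 9 CG dinucleotides in its 300 bases, whereas that of ZNF677 holds 34. The 22 promoters at 19p12 had a median of 10 CG dinucleotides (8 to 18), the 14 at 19q13.12 a median of 21 (14 to 30) and the 10 at 19q13.4 a median of 25.5 (17 to 34). The median over all 35116 promoters in the table was 14, and over 582 promoters of other genes named ZNF it was 22. The 19p12 promoters thus had the lowest median of the 3 clusters, although promoters of other genes named ZNF reached lower, and no 19p12 promoter reached the median of 19q13.12.

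**Figure D1:**
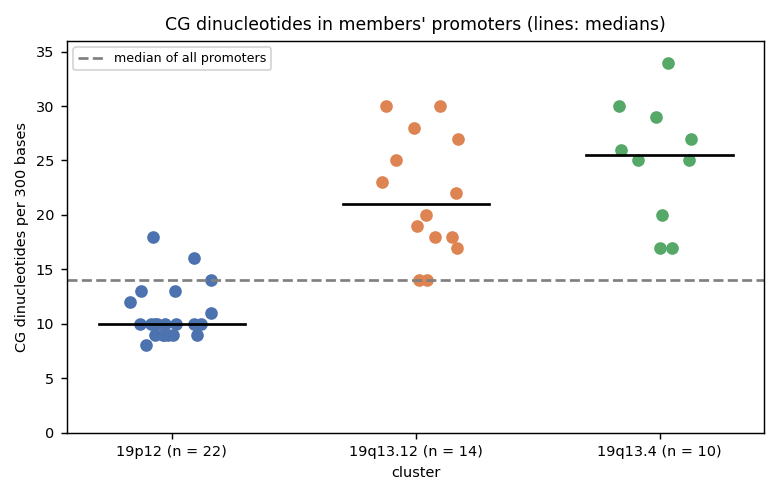
CG dinucleotides in the 300-base RefSeq promoter of 46 genes, 1 point per gene by cluster; black lines are the medians (10, 21 and 25.5) and the dashed line is the median of all promoters (14). The 19p12 points lie between 8 and 18, below most points of the other clusters.

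The 19p12 promoters also resembled each other. Over 231 pairs within 19p12, the identity in a global alignment had a median of 75.9%, and 123 pairs reached 70%. The highest was 91.0%, between ZNF431 and ZNF714, followed by 87.5% between ZNF626 and ZNF486. ZNF430 and ZNF431, whose promoters are printed above, were 84.3% identical. Within 19q13.12 the median was 50.9%, and within 19q13.4 it was 55.1%, where 10 of 45 pairs reached 70%. Between clusters the highest of 668 pairs was 55.6%, below the 70% mark that the 123 pairs within 19p12 reached.

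The motif CCGGAAG, the core bound by ETS family factors, was searched on both strands, as were the other motifs here, each counted separately. It occurred in 26 of the 46 promoters (56.5%), against 10.3% of all promoters of this length and 31.8% of those of other genes named ZNF. The motif GGGCGG, a GC box, occurred in 28 (60.9%), against 45% of all promoters, and in 9 of the 10 at 19q13.4. TATAAA occurred in 3, all at 19p12 (6.52% of the 46), against 11.5% of all. These are matches of letters in the printed kind of window, not binding sites.

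KG1a had the highest vehicle mean for 29 of the 43 tested genes (67.4%), although it was the highest line for 19% of all genes tested. HL60 had the lowest for 23 (53.5%), against 19.2% of all genes. Among 115 other tested zinc finger genes of chromosome 19, KG1a was the highest for 46.1%, and among 200 tested ZNF genes of other chromosomes for 24.5%. By the moderated F-test of limma with Benjamini-Hochberg adjustment over all genes tested at 0.05, 41 of 43 genes differed between the vehicle groups (95.3%), where 85.1% of all genes did.

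In vehicle-treated KG1a, 34 of 43 genes were higher than in vehicle-treated HL60 and 3 were lower, against 27.2% higher and 34.6% lower among all genes. The median difference was 0.93 on the log2 scale over the 43 genes, and 1.39 over the 11 genes at 19q13.4. HNT-34 had 26 genes lower than KG1a and 2 higher (24.7% and 27.8% of all genes), with a median difference of -0.47. AML-193 had 27 lower than KG1a and 8 higher (30.6% and 34.4% of all genes), with a median difference of -0.46. AML-193 had 17 genes higher than HNT-34 and 14 lower (32.7% and 33.3% of all genes), and 24 higher than HL60 and 4 lower (32.3% and 33.7%). HNT-34 had 26 higher than HL60 and 9 lower (27.4% and 29.6%). From the medians of these differences the lines stood in the order KG1a, then AML-193 and HNT-34 at about the same level (median difference 0.03), then HL60. The 3′ minus 5′ signal of the AML-193 vehicle arrays stood apart, as given above, and with it as a covariate 17 of the 43 genes were lower in AML-193 than in KG1a and 0 were higher, where 16.1% of all genes were lower and 17.1% higher. In bulk RNA, fewer cells that express a gene and less RNA per cell cannot be told apart.

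The genes with the widest spread between lines were ZNF257 at 19p12, ZNF677 at 19q13.4 and ZNF585B at 19q13.12. ZNF257 had vehicle signals of 7.22 and 7.35 in AML-193, 4.30 and 4.50 in HNT-34, 8.81 and 9.03 in KG1a, and 4.07 and 4.23 in HL60. ZNF677 had 4.79 and 5.02 in AML-193, 8.27 and 7.98 in HNT-34, 9.40 and 9.54 in KG1a, and 5.07 and 5.28 in HL60. ZNF585B had 7.74 and 7.89 in AML-193, 5.18 and 5.01 in HNT-34, 9.40 and 9.22 in KG1a, and 7.89 and 7.77 in HL60. In each of the 3 genes KG1a was the highest line, and the lines at the bottom lay below the array median. HNT-34 minus HL60 for ZNF257 was 0.26 (adjusted p = 0.0590) and AML-193 minus HL60 for ZNF677 was -0.27 (adjusted p = 0.114, both by limma), so these lowest neighbours did not differ beyond their spread. The range over the 4 vehicle means was 4.77 for ZNF257, 4.57 for ZNF677 and 4.21 for ZNF585B.

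Other genes kept a near constant vehicle level. ZNF345 at 19q13.12 had 6.89 and 7.08 in AML-193, 7.12 and 6.98 in HNT-34, 7.07 and 7.16 in KG1a, and 7.20 and 7.04 in HL60, and the F-test did not call it (adjusted p = 0.680). ZNF529 in the same cluster, with a range of 0.25 between lines, was the other gene not called (adjusted p = 0.0993). ZNF91, the repressor of SVA elements, was far above the array median in all lines, with 11.48 and 11.31 in AML-193, 9.24 and 9.55 in HNT-34, 11.09 and 10.79 in KG1a, and 10.70 on both arrays in HL60. HNT-34 was its lowest line, and KG1a and HL60 did not differ beyond their spread (0.24, adjusted p = 0.142 by limma). ZNF93, the repressor of L1 elements, had 9.47 and 9.45 in AML-193, 10.94 and 10.65 in HNT-34, 11.43 and 11.53 in KG1a, and 8.70 and 8.84 in HL60, with all 6 pairs of lines apart.

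At 19q13.12, ZNF420, a KRAB zinc finger protein known to restrain p53, lay well above the array median in all lines, with vehicle means of 9.51 in AML-193, 9.64 in HNT-34, 10.14 in KG1a and 9.85 in HL60. ZNF568, whose mouse counterpart represses a placental Igf2 transcript, was above it in KG1a alone, with vehicle means of 6.25 in AML-193, 4.79 in HNT-34, 7.22 in KG1a and 5.74 in HL60. ZNF570, near the array median in all lines, ranged from 6.54 in HL60 to 7.15 in KG1a. At 19q13.4, ZNF765 averaged 9.82 in AML-193, 9.66 in HNT-34, 10.05 in KG1a and 9.40 in HL60. ZNF665 averaged 9.44 in AML-193, 10.05 in HNT-34, 10.40 in KG1a and 8.74 in HL60. ZNF347 averaged 7.37 in AML-193, 5.66 in HNT-34, 8.12 in KG1a and 4.75 in HL60. In all 6 of these genes KG1a was the highest line.

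ZNF331, a gene that is imprinted in some human tissues, went another way. Its vehicle signals were 8.99 and 8.80 in AML-193, 6.74 and 6.87 in HNT-34, 9.32 and 8.90 in KG1a, and 9.32 and 8.96 in HL60. HNT-34 alone was low: AML-193 minus HNT-34 was 2.09, HNT-34 minus KG1a was -2.31 and HNT-34 minus HL60 was -2.34 (adjusted p of at most 1.29e-07 by limma). The other 3 lines did not differ beyond their spread.

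**Figure D2:**
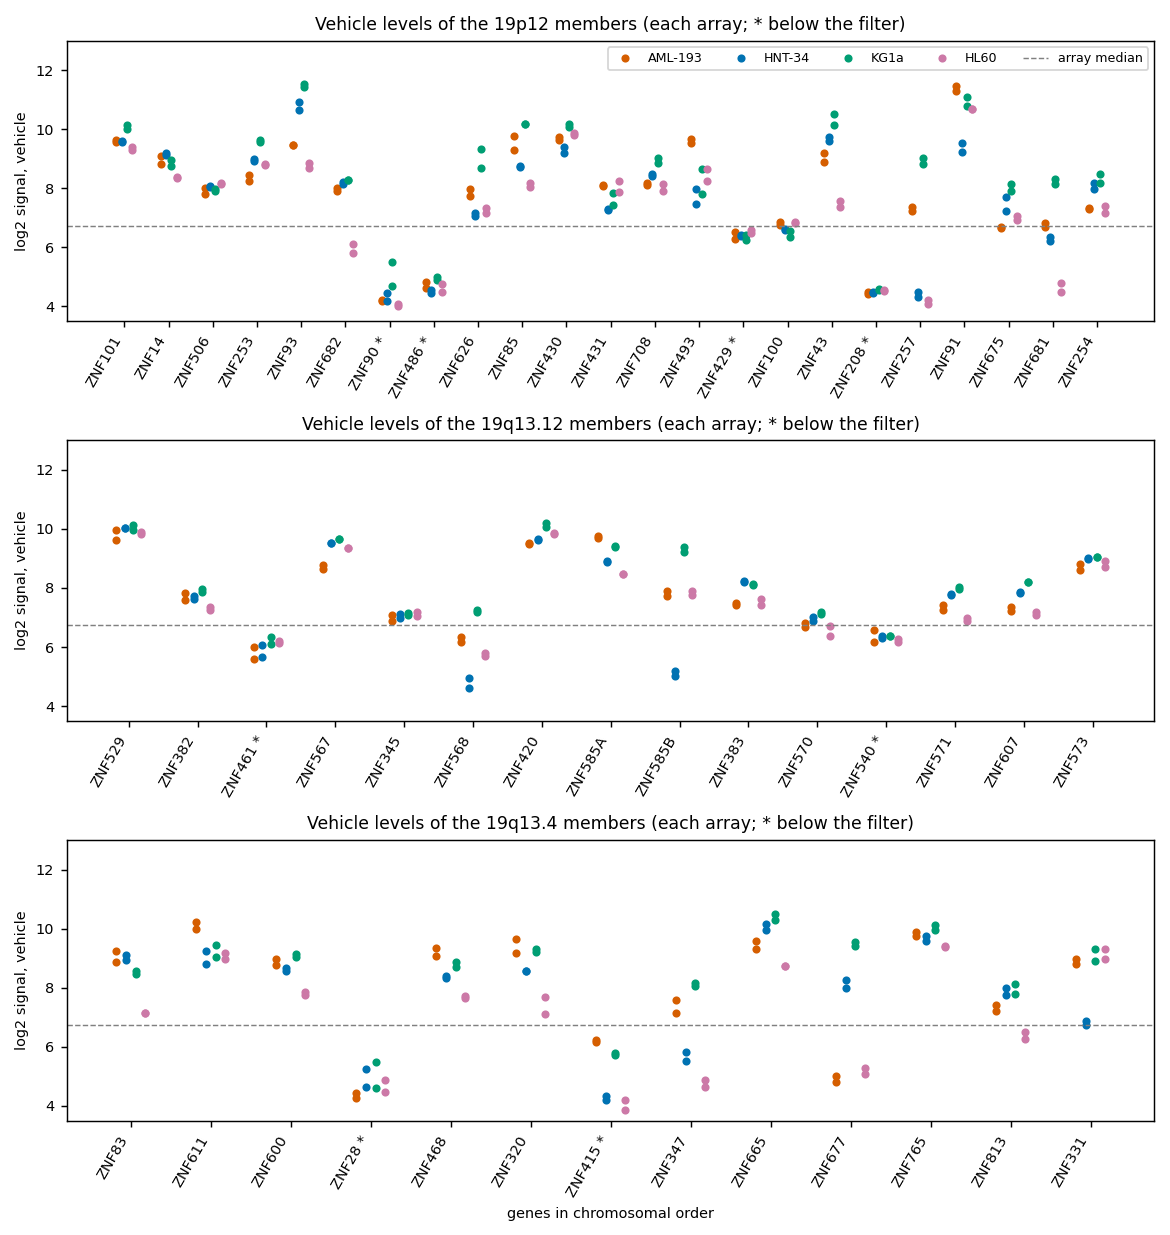
Vehicle log2 signal of 51 genes, 2 arrays per line, in chromosomal order within each cluster; the dashed line is the array median (6.73) and an asterisk marks the 8 genes below the filter. KG1a (green) is highest for 29 of the 43 tested genes, and ZNF257, ZNF677 and ZNF585B spread over more than 4 units between lines.

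The 8 genes on the arrays that were not tested were ZNF429, ZNF208, ZNF90 and ZNF486 at 19p12, ZNF461 and ZNF540 at 19q13.12, and ZNF28 and ZNF415 at 19q13.4. None reached the array median on any of the 16 arrays. The lowest was 3.86 for both ZNF90 and ZNF415, and the highest 6.65 for ZNF429. ZNF415 lay between 5.94 and 6.40 on the AZA arrays of AML-193, against 6.15 and 6.23 on its vehicle arrays, and between 4.09 and 4.61 on the AZA arrays of HL60, against 4.18 and 3.86 on its vehicle arrays, so AZA and vehicle overlapped in both. ZNF714 had no probe set of a single symbol and has no value here.

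After AZA, falls outnumbered rises among the clustered genes in AML-193. Of the 43 genes, 21 fell (48.8%) and 4 rose (9.30%), where 20.3% of all genes tested fell and 20.7% rose. The median change, AZA minus vehicle, was -0.27 on the log2 scale over the 43 genes, against 0.02 over all genes. The falls came from every cluster: 8 of 19 genes at 19p12 (median -0.27), 8 of 13 at 19q13.12 (median -0.25) and 5 of 11 at 19q13.4 (median -0.08). Other zinc finger genes moved the same way, with 36 of 115 on chromosome 19 lower and 64 of 200 on other chromosomes. The 3′ minus 5′ signal of this line was 0.198 on average after AZA and 1.27 with vehicle. With that signal as a covariate in limma, 0 of the 25 calls remained and 18 of the 25 kept their sign. In that fit 7 genes fell and 1 rose at an unadjusted p under 0.05, and the median standard error was 0.25 in place of 0.11. The same fit called 157 of all 14038 genes lower (1.12%) and 216 higher (1.54%). Without the first vehicle array of this line, 16 genes were called, 14 lower and 2 higher. Of 10 blood cell markers 6 rose and 1 fell in this line, with MPO at 13.67 after AZA and 10.56 with vehicle, CD14 at 7.52 and 5.87, and ITGAM at 11.77 and 10.64. Of 7 tested markers of other cell types 4 rose and 1 fell. The log2 signals of all 10 blood cell markers summed to 97.8 and 98.0 on the AZA arrays, against 90.0 and 90.4 on the vehicle arrays, and those of all 11 other markers to 79.7 and 80.7, against 77.9 and 78.5. The part of these markers in the result was not tested.

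The largest fall was that of ZNF682 at 19p12 (chr19:19995131-20039505), one of the CG-poor promoters printed above. Its signals were 6.79 and 6.73 on the AZA arrays, against 8.01 and 7.92 on the vehicle arrays of AML-193. The AZA arrays lay below the vehicle arrays by more than 1 unit, with a change of -1.20 ± 0.14 (SE; adjusted p = 3.99e-05 by limma), and with the 3′ minus 5′ covariate it was -0.80 (adjusted p = 0.212). ZNF431 had 7.30 and 7.17 on the AZA arrays, against 8.08 and 8.11 on the vehicle arrays. It fell by 0.86 on the log2 scale (SE 0.13, adjusted p = 0.000263 by limma), while ZNF430, with the similar promoter, had a change of -0.20 (adjusted p = 0.138). The changes of ZNF430 and ZNF431 were 0.35 and 0.07 in HNT-34, 0.08 and 0.07 in KG1a, and 0.38 and 0.33 in HL60. Whether these genes differ from each other was not tested. With the covariate the change of ZNF431 was -0.81 (adjusted p = 0.210). Its 3 bright probe sets did not share a direction, with changes of -0.86, -0.42 and 0.31.

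ZNF320 at 19q13.4 had 8.61 and 8.58 on the AZA arrays, against 9.66 and 9.17 on the vehicle arrays of AML-193, a change of -0.82 ± 0.18 (SE; adjusted p = 0.00283 by limma). Its vehicle arrays were wider apart than those of the other 42 tested genes, by 0.49, and without the first vehicle array the change was -0.57. ZNF468 had 8.67 and 8.17 on the AZA arrays, against 9.07 and 9.33 on the vehicle arrays, a change of -0.78 ± 0.14 (SE; adjusted p = 0.000648). ZNF331 had 8.29 and 8.11 on the AZA arrays, against 8.99 and 8.80 on the vehicle arrays, a change of -0.70 ± 0.17 (SE; adjusted p = 0.00638), and its second bright probe set gave -0.67. In all 3 genes both AZA arrays were below both vehicle arrays. The genes were picked for their large called changes, so such separation is no further support, here or in the other lines. With the covariate the changes were 0.04 for ZNF320, -0.92 for ZNF468 and -0.21 for ZNF331 (adjusted p = 0.966, 0.164 and 0.832 by limma).

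The other falls in AML-193 were smaller. At 19p12 they were ZNF493 (-0.64), ZNF100 (-0.58), ZNF257 (-0.58), ZNF253 (-0.49), ZNF14 (-0.46) and ZNF85 (-0.41). At 19q13.12 they ran from ZNF382 (-0.58), a KRAB gene described as silenced by methylation in carcinomas, through ZNF529 (-0.53), ZNF383 (-0.50), ZNF571 (-0.46), ZNF568 (-0.43), ZNF573 (-0.28) and ZNF607 (-0.25) to ZNF567 (-0.19). At 19q13.4 ZNF83 fell by 0.61 and ZNF611 by 0.48. ZNF529 and ZNF382 stand head to head, and their promoter windows overlap. Among the 25 called genes of this line, 11 had at least 2 bright probe sets, and in 6 of these all bright probe sets had the same sign.

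Against this direction, 4 genes rose in AML-193. ZNF93 had 10.03 on both AZA arrays, against 9.47 and 9.45 on the vehicle arrays, a change of 0.57 ± 0.09 (SE; adjusted p = 0.000369 by limma). The other rises were ZNF813 (0.40), ZNF585A (0.39) and ZNF101 (0.22). Further bright probe sets differed in sign for ZNF93 (-0.16), ZNF585A (-0.35 and 0.09) and ZNF101 (0.08 and -0.31), and ZNF813 has 1 probe set. In a limma fit of all probe sets the falls of -0.35 for ZNF585A (adjusted p = 0.0195) and -0.31 for ZNF101 (0.0266) passed.

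In HNT-34 most genes had no call, and rises outnumbered falls. Here 9 of 43 genes rose (20.9%) and 1 fell (2.33%), where 15.4% of all genes tested rose and 14.8% fell. The median change was 0.15, against 0.01 over all genes. Over all genes tested, 48.4% of the changes were below 0. All 11 genes at 19q13.4 had a change above 0, from 0.05 to 0.60, and 2 of them were called. At 19p12 the median was 0.20 with 5 rises and no fall, and at 19q13.12 it was -0.06 with 2 rises, 1 fall and 10 of 13 changes below 0. Other zinc finger genes on chromosome 19 had 11 rises and 6 falls of 115, and those on other chromosomes had 17 rises and 31 falls of 200. The 3′ minus 5′ signal was -0.102 on average after AZA and -0.00330 with vehicle, and all 10 calls remained with it as a covariate. Without the second AZA array of this line, 6 genes were called, all higher. Of the 10 blood cell markers 1 rose and 4 fell, with CD34 at 10.49 after AZA and 11.74 with vehicle and ITGAM at 7.79 and 9.49, and of the 7 tested markers of other cell types 2 rose and 2 fell. The sums were 88.8 to 89.0 on the AZA arrays, against 90.6 to 91.4 on the vehicle arrays, for the blood cell markers, and 89.8 to 89.9, against 89.6 to 90.2, for the others. Their part in the result was not tested.

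ZNF101 at the edge of the 19p12 cluster, with 18 CG dinucleotides the CG-richest promoter there, rose most. Its signals were 10.18 and 10.24 on the AZA arrays, against 9.61 and 9.56 on the vehicle arrays of HNT-34, a change of 0.63 ± 0.07 (SE; adjusted p = 2.62e-05 by limma). The other 2 bright probe sets rose as well, with 0.36 and 0.68. ZNF600 at 19q13.4 had 9.19 and 9.23 on the AZA arrays, against 8.68 and 8.55 on the vehicle arrays, a change of 0.60 ± 0.11 (SE; adjusted p = 0.000885). ZNF93 had 11.41 and 11.31 on the AZA arrays, against 10.94 and 10.65 on the vehicle arrays, a change of 0.56 ± 0.09 (SE; adjusted p = 0.000402). In each of these genes, picked for their large changes, the groups did not overlap.

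ZNF585A had 9.35 and 9.42 on the AZA arrays, against 8.88 and 8.91 on the vehicle arrays of HNT-34, a change of 0.48 ± 0.09 (SE; adjusted p = 0.000986 by limma). ZNF468 had 8.85 and 8.78 on the AZA arrays, against 8.34 and 8.39 on the vehicle arrays, a change of 0.45 ± 0.14 (SE; adjusted p = 0.0217). Both AZA arrays again lay above both vehicle arrays. The other rises were ZNF570 (0.43), ZNF100 (0.39), ZNF430 (0.35) and ZNF257 (0.34). The single fall was ZNF607 at 19q13.12 (-0.23, adjusted p = 0.0333). ZNF331 averaged 7.25 ± 0.345 on the AZA arrays, against 6.80 ± 0.0920 on the vehicle arrays (SD, n = 2 each), a change of 0.45 that did not pass (adjusted p = 0.0694 by limma). Its second bright probe set gave -0.15.

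In KG1a, the line with the highest vehicle levels, 0 of 43 genes rose and 1 fell (2.33%) by limma, where 6.56% of all genes tested rose and 3.37% fell. At an unadjusted p under 0.05, 3 rose and 2 fell. The median change was -0.02, and changes ran from -0.27 to 0.28 by the probe set that stood for each gene. ZNF765 had a second bright probe set, which rose by 0.52 (adjusted p = 0.00387 in a limma fit of all probe sets with 1 symbol). The probe set that stood for ZNF765 gave 0.21. ZNF607 had 7.96 and 7.91 on the AZA arrays, against 8.19 and 8.22 on the vehicle arrays, a change of -0.27 ± 0.08 (SE; adjusted p = 0.0436 by limma). This call sat close to the threshold and was lost in 10 of 16 fits that left out 1 array. For ZNF468, with 8.79 and 8.77 on the AZA arrays against 8.87 and 8.70 on the vehicle arrays, the change was 0.00 with a 95% interval of -0.30 to 0.29. For ZNF682 it was 0.18 (-0.13 to 0.49), for ZNF83 -0.10 (-0.36 to 0.15) and for ZNF101 0.14 (-0.02 to 0.30), and the changes of these 4 genes that passed the test in AML-193, HNT-34 or HL60 lay outside the intervals, apart from that of ZNF101 in AML-193.

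In HL60 rises outnumbered falls, at a share near that of all genes. Of 43 genes, 12 rose (27.9%) and 3 fell (6.98%), where 25.2% of all genes tested rose and 16% fell. The median change was 0.14, against 0.05 over all genes. By cluster the counts were 5 rises and 2 falls at 19p12 (median 0.13), 2 rises at 19q13.12 (median 0.09), and 5 rises and 1 fall of 11 at 19q13.4 (median 0.32). Other zinc finger genes had 28 rises and 22 falls of 115 on chromosome 19, and 58 rises and 37 falls of 200 on other chromosomes. The 3′ minus 5′ signal was 0.722 on average after AZA and 0.0443 with vehicle. With it as a covariate 4 of the 15 calls remained and all 15 kept their sign. The median standard error was then 0.18 in place of 0.11. At an unadjusted p under 0.05, 10 genes rose and 2 fell in that fit. That fit called 9.67% of all genes higher and 5.66% lower. Of the 10 blood cell markers 7 rose and 1 fell, with ITGAM at 9.94 after AZA and 7.73 with vehicle and CD14 at 10.11 and 8.50. Of the 7 tested markers of other cell types 3 rose and 1 fell, with KRT18 at 8.73 after AZA and 7.37 with vehicle. The sums were 110 on both AZA arrays, against 103 on both vehicle arrays, for the blood cell markers, and 79.7 to 80.3, against 76.1 to 76.4, for the others. Their part in the result was not tested.

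ZNF468 at 19q13.4 (chr19:52838010-52857619) rose by 1.06 on the log2 scale, the largest rise among the 43 genes in any line. It had 8.82 and 8.67 on the AZA arrays, against 7.72 and 7.65 on the vehicle arrays of HL60. The change was 1.06 ± 0.14 (SE; adjusted p = 5.65e-05 by limma), and the groups lay far apart. ZNF83, at the start of the same cluster, had 8.07 and 7.79 on the AZA arrays, against 7.15 and 7.13 on the vehicle arrays, a change of 0.79 ± 0.12 (SE; adjusted p = 0.000202). That probe set can share sequence with other transcripts by its type, and the second probe set of ZNF83, which is dimmer, gave -0.08. With the 3′ minus 5′ covariate the change was 0.40 (adjusted p = 0.0775). ZNF100 at 19p12 had 7.41 and 7.51 on the AZA arrays, against 6.86 and 6.83 on the vehicle arrays, a change of 0.62 ± 0.09 (SE; adjusted p = 0.000165). ZNF101 had 9.90 and 10.02 on the AZA arrays, against 9.40 and 9.31 on the vehicle arrays, a change of 0.61 ± 0.07 (SE; adjusted p = 3.59e-05).

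The other rises in HL60 were ZNF585B (0.56), ZNF600 (0.47), ZNF611 (0.44), ZNF14 (0.41), ZNF430 (0.38), ZNF765 (0.33), ZNF257 (0.33) and ZNF585A (0.26). The falls were ZNF665 at 19q13.4, and ZNF675, a binding partner of TRAF6, and ZNF254 at 19p12. ZNF665 had 7.83 and 8.35 on the AZA arrays, against 8.74 and 8.75 on the vehicle arrays, a change of -0.65 ± 0.14 (SE; adjusted p = 0.00297 by limma). Without the first AZA array its change was -0.40, and with the covariate -0.20 (adjusted p = 0.506). ZNF675 fell by 0.60 and ZNF254 by 0.47. All 3 falls rest on probe sets of the x type, which by design may bind several related transcripts, and the second bright probe set of ZNF254 gave 0.51. Over the 15 genes measured by probe sets of the s or x type HL60 had 5 rises and 3 falls, and over the other 28 genes 7 rises and no fall. These counts use 1 probe set per gene. In a limma fit of all probe sets, further bright ones of neither type passed in both directions. Those of ZNF506 (-0.54), ZNF382 (-0.44), ZNF431 (-0.38) and ZNF420 (-0.30) fell, and those of ZNF101 (0.89), ZNF529 (0.40) and ZNF765 (0.29) rose. Of the s or x type, further bright ones of ZNF253 (-0.97) and ZNF567 (-0.59) fell.

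**Figure D3:**
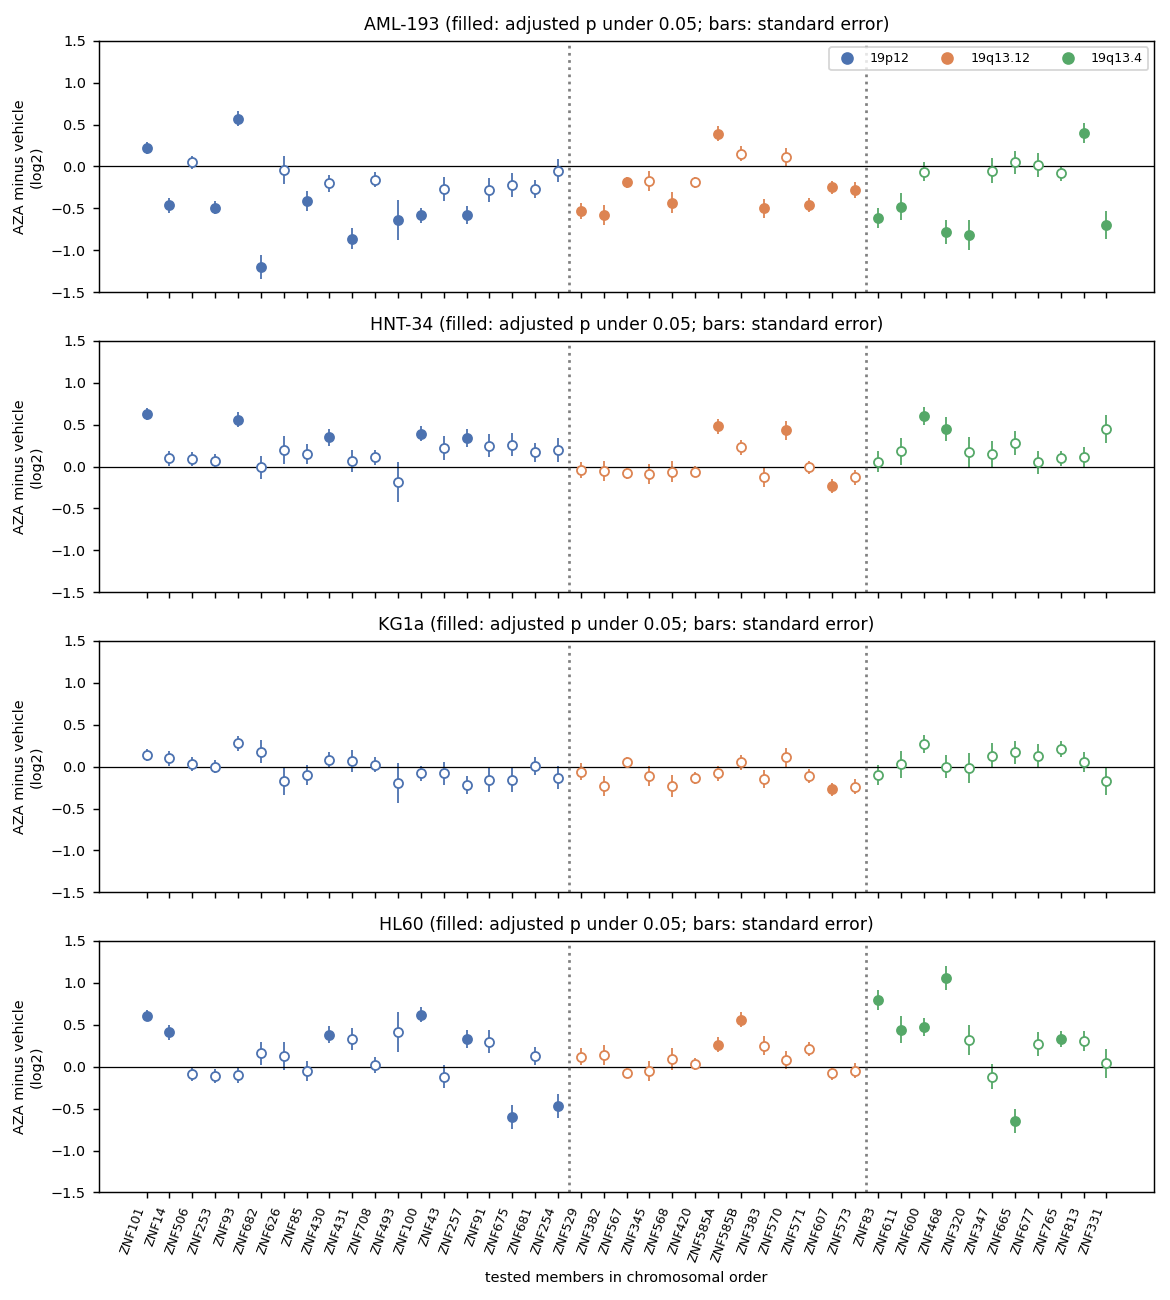
AZA minus vehicle (log2) of the 43 tested genes in chromosomal order, 1 panel per line; filled points have an adjusted p under 0.05 and bars are standard errors. Most points lie below 0 in AML-193 (21 falls, 4 rises) and above 0 in HNT-34 and HL60, and they stay between -0.27 and 0.28 in KG1a.

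The lines were then compared directly. By the moderated F-test of limma, the AZA change differed between lines for 24 of 43 genes (55.8%), where 57.1% of all genes tested did, so differences between lines were about as frequent here as elsewhere. Between AML-193 and HL60 the change differed for 25 genes (58.1%, against 47.3% of all genes), and between AML-193 and HNT-34 for 19 (44.2%, against 31.5%). Between AML-193 and KG1a it differed for 11 (25.6%, against 24.4%). Between HNT-34 and HL60 it differed for 6 (14.0%, against 35.8%), between HNT-34 and KG1a for 4 (9.30%, against 15.2%) and between KG1a and HL60 for 8 (18.6%, against 27%). With the 3′ minus 5′ signal as a covariate the F-test called 7 of the 43 genes (16.3%), where it called 31.4% of all genes.

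ZNF468 had the widest range of changes, 1.84 on the log2 scale between AML-193 and HL60. AML-193 minus HL60 was -1.84 ± 0.19 (SE; adjusted p = 1.15e-05 by limma), and AML-193 minus HNT-34 was -1.23 ± 0.19 (adjusted p = 0.000388). After AZA the 4 lines stood close together, at 8.42 in AML-193, 8.82 in HNT-34, 8.78 in KG1a and 8.75 in HL60. With vehicle they stood farther apart, at 9.20 in AML-193, 8.36 in HNT-34, 8.78 in KG1a and 7.69 in HL60. ZNF83 had a range of 1.40, and KG1a minus HL60 was -0.89 ± 0.17 (SE; adjusted p = 0.00216). ZNF682 had a range of 1.39 in which the change of AML-193 differed from that of each other line (adjusted p of at most 0.000675), and the changes of the other lines did not differ beyond their spread. With the 3′ minus 5′ covariate the F-test lost both ZNF83 (range 0.52, adjusted p = 0.0699) and ZNF682 (0.97, 0.0553), and it kept ZNF468 (2.06, 0.0168).

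ZNF100 (range 1.20) and ZNF431 (1.19) were also lowest in AML-193 and highest in HL60. For ZNF100 the change in HNT-34 minus that in KG1a was 0.47 ± 0.13 (SE; adjusted p = 0.0244 by limma), so KG1a, with 6.28 and 6.44 on the AZA arrays against 6.54 and 6.34 on the vehicle arrays, differed from the lines on both sides. ZNF331 (range 1.14) differed between AML-193 and HNT-34 by -1.14 ± 0.24 (SE; adjusted p = 0.00335). Its second bright probe set gave -0.67 in AML-193 and -0.15 in HNT-34, where the chosen one gave 0.45. ZNF320 also had a range of 1.14, between AML-193 and HL60. With the covariate ZNF100 was still called (range 1.32, adjusted p = 0.00671 by limma), and ZNF431 (0.181), ZNF331 (0.0701) and ZNF320 (0.377) were not.

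The genes called in 1 direction in one line and in the other direction in another numbered 6 (background 20.2% of all genes). ZNF100, ZNF257 and ZNF468 fell in AML-193 and rose in HNT-34 and HL60. ZNF83, ZNF611 and ZNF14 fell in AML-193 and rose in HL60. All 6 falls in AML-193 lost their call with the 3′ minus 5′ covariate, which left 0 of 25 calls there and 4 of 15 in HL60. Calls in the same direction in at least 3 lines were few. ZNF101 and ZNF585A rose in AML-193, HNT-34 and HL60, where 3.93% of all genes rose in at least 3 lines. These calls use 1 probe set per gene. In AML-193 another bright probe set of ZNF101 gave -0.31 and another of ZNF585A gave -0.35. In HL60 the other bright probe sets of ZNF585A gave -0.02 and 0.02. ZNF607 fell in AML-193, HNT-34 and KG1a, where 2.20% of all genes fell in at least 3 lines. The AML-193 calls of these 3 genes were also lost with the covariate. ZNF607 had a change of -0.08 in HL60 (adjusted p = 0.461), and the F-test found no difference between the lines (adjusted p = 0.369). No call in any line was made for 10 of the 43 genes, against 29.3% of all genes.

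**Figure D4:**
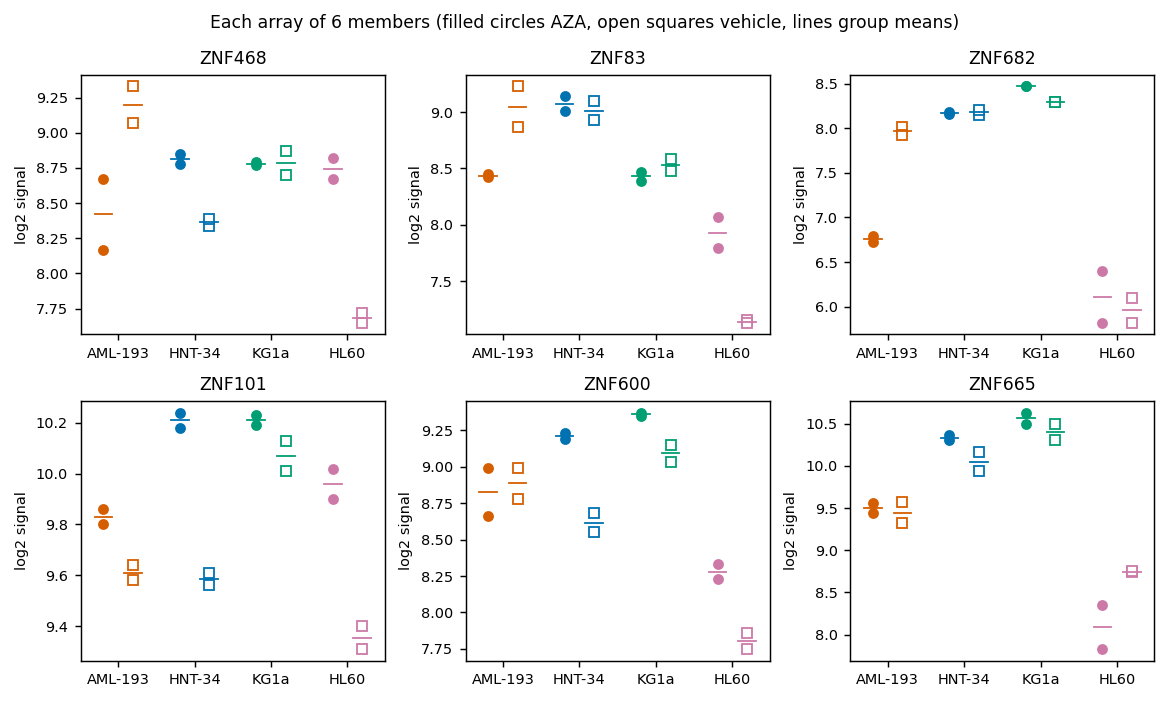
Log2 signal of ZNF468, ZNF83, ZNF682, ZNF101, ZNF600 and ZNF665 on each of the 16 arrays by line; filled circles are AZA, open squares vehicle and short lines group means (n = 2). ZNF468 falls in AML-193 and rises in HNT-34 and HL60, ZNF682 falls in AML-193 alone, and ZNF665 falls in HL60.

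A run of 6 neighbours at 19q13.4, ZNF83, ZNF611, ZNF600, ZNF28, ZNF468 and ZNF320, held several of the widest changes, and ZNF28 was not tested. In HL60 the changes along the chromosome were 0.79, 0.44, 0.47, 1.06 and 0.32, and the first 4 of these passed the test. In AML-193 they were -0.61, -0.48, -0.06, -0.78 and -0.82, and all but that of ZNF600 passed. In HNT-34 ZNF600 (0.60) and ZNF468 (0.45) passed, and in KG1a none did. The change of ZNF320 in HL60 did not pass (adjusted p = 0.171 by limma), and the AZA and vehicle arrays of ZNF600 overlapped in AML-193. With the 3′ minus 5′ covariate none of the AML-193 calls remained, and ZNF320 was at 0.04 there. ZNF83 was at 0.40 in HL60 and did not pass either. ZNF83, ZNF611, ZNF600 and ZNF320 are measured by probe sets of the s or x type, and how much of their likeness is shared probe signal was not tested.

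Some genes were dim in one line and bright in another, which allows the question whether AZA brought the dim ones up. The rule for these, a vehicle mean below the array median and at least 2 log2 units under that of another line, was chosen after the values had been seen. It found 10 combinations of gene and line, of 7 genes, and the bright line was KG1a each time. ZNF257 was called higher in HNT-34, with 4.88 and 4.61 on the AZA arrays against 4.30 and 4.50 on the vehicle arrays, and in HL60, with 4.48 and 4.47 on the AZA arrays against 4.07 and 4.23 on the vehicle arrays. The rises were 0.34 and 0.33, and the KG1a vehicle arrays had 8.81 and 9.03. ZNF677, which has been described as silenced by methylation in some tumours, had 5.15 and 4.70 on the AZA arrays of AML-193, against 4.79 and 5.02 on its vehicle arrays, a change of 0.02 (95% interval -0.29 to 0.33). In HL60 it had 5.38 and 5.50 on the AZA arrays, against 5.07 and 5.28 on the vehicle arrays, a change of 0.27 (-0.04 to 0.58).

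ZNF585B in HNT-34 had 5.29 and 5.37 on the AZA arrays, against 5.18 and 5.01 on the vehicle arrays, a change of 0.23 (95% interval 0.04 to 0.43; adjusted p = 0.0725 by limma). ZNF347 had a change of 0.15 in HNT-34 (-0.18 to 0.47) and of -0.12 in HL60 (-0.44 to 0.21). ZNF568 in HNT-34 had -0.06 (-0.34 to 0.22), ZNF681 in HL60 0.13 (-0.11 to 0.37) and ZNF682 in HL60 0.16 (-0.15 to 0.46). In all 10 combinations the upper end of the interval was below 1 log2 unit, and all stayed below the array median. Of 2025 such combinations among all genes tested, 23.5% were called higher and 8.40% rose by at least 1 unit. Signals near the background can be compressed on such arrays, and whether the rises of these dim genes are understated was not tested.

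**Figure D5:**
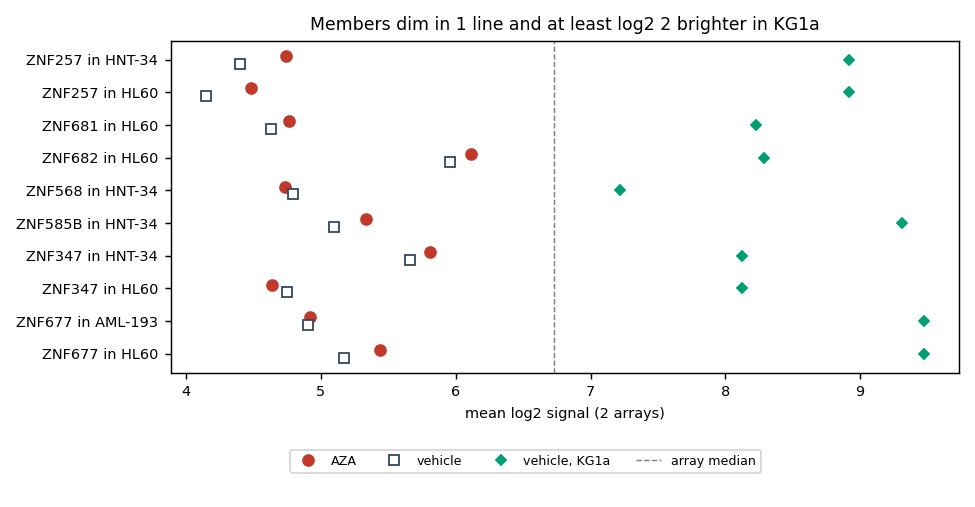
Mean log2 signal (n = 2 arrays) of the 10 combinations of gene and line with a dim vehicle signal, after AZA (red circles) and with vehicle (open squares), beside the vehicle mean of KG1a (green diamonds); the dashed line is the array median. AZA and vehicle lie within 0.34 of each other, and KG1a lies 2.33 to 4.77 above the vehicle value.

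The genes through which KRAB zinc finger proteins act also changed in part. Of 27 such corepressor and heterochromatin genes, 13 fell and 4 rose in AML-193, 10 fell and 2 rose in HNT-34, 1 fell and 1 rose in KG1a, and 3 fell and 8 rose in HL60. The lower calls made up 48.1% of the list in AML-193 and 37.0% in HNT-34, where 20.3% and 14.8% of all genes fell, and the rises in HL60 made up 29.6%, near the 25.2% of all genes. With the 3′ minus 5′ covariate 0 of the 27 fell and 1 rose in AML-193, and 1 fell and 2 rose in HL60, while the HNT-34 counts were the same. TRIM28, the scaffold that binds the KRAB domain, had means of 13.02 after AZA and 12.43 with vehicle in HL60, a rise of 0.59 ± 0.14 (SE; adjusted p = 0.00370 by limma), and its changes of -0.04 in AML-193, -0.29 in HNT-34 and -0.09 in KG1a did not pass. SETDB1, which methylates histone H3 at lysine 9, fell by 0.31 in AML-193 and by 0.43 in HNT-34, rose by 0.36 in HL60 and had a change of -0.03 in KG1a that did not pass. RESF1, a partner of SETDB1, rose by 1.07 in AML-193, by 0.66 in HNT-34 and by 0.35 in KG1a. CBX5, which encodes heterochromatin protein 1 alpha, fell by 0.71 in HNT-34 and by 0.58 in HL60. UHRF1, which recruits DNMT1 to newly replicated DNA, fell by 0.22 in AML-193 and by 0.85 in HNT-34, where DNMT1 fell by 0.46, and rose by 0.41 in HL60.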

How the data were processed

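RNA of 16 samples was hybridised to Affymetrix U133 Plus 2.0 arrays. The authors deposited 1 log2 signal for each probe set and array. The submitters' processing notes name affy and RMA without versions, and how the steps ran and the base of the logarithm are not given in the sources used here; the scale was taken as log2 from the range of 3.26 to 15.3. Nothing further was done to the values. All 16 columns belong to samples of the series, and 0 did not. Having 2 arrays per group limits the precision.

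Of 54675 probe sets, 41097 had 1 gene symbol in the platform annotation. Among these the probe set with the highest mean stood for each of 19775 genes. Genes at or above the array median on at least 2 arrays were tested. One limma model (version 3.58.1, R 4.3.3) held a mean for each of the 8 groups, moderated by empirical Bayes, with 8 residual degrees of freedom. Benjamini and Hochberg adjustment ran over 14038 genes, with calls at 0.05. Contrasts were AZA minus vehicle per line, differences of these between lines, and differences between vehicle groups. The fit was tested on simulated data.

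The genes, lists and rules were chosen with earlier results of these data known. Array values are given for up to 5 called genes with the largest change per line, for the 6 widest ranges between lines, and for the 2 highest and 2 lowest vehicle means per cluster. The alternatives tried were the mean of all probe sets, leaving out the s and x types, no filter or a stricter one, a second quantile normalization, a trended prior, each line alone, the 3′ minus 5′ covariate, and leaving out each array. Promoters came from a RefSeq table of GRCh38.p14, and promoter identity is the share of matches in a global alignment. Protein sequences were not analysed here.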

Additional observations from a re-analysis of the deposited data

Results flagged for a closer look

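The AZA change of 12 named genes differed between the lines by the moderated F-test of limma, adjusted over all genes tested, and each is given as the range between its highest and its lowest line on the log2 scale. The range was 1.84 for ZNF468 (adjusted p = 4.20e-05), 1.40 for ZNF83 (0.000147) and 1.20 for ZNF100 (3.40e-05), each highest in HL60 and lowest in AML-193. ZNF431 had 1.19 (0.000696) and ZNF320 1.14 (0.00721), between the same lines. ZNF682 had 1.39 (0.000204), with KG1a highest and AML-193 lowest. ZNF331 had 1.14 (0.00909) and ZNF600 0.66 (0.0107), both between HNT-34 and AML-193. The second bright probe set of ZNF331 gave -0.15 in HNT-34 and -0.67 in AML-193. ZNF665 had 0.93 (0.00651), between HNT-34 and HL60. ZNF93 had 0.67 (0.00188), between AML-193 and HL60. ZNF585A had 0.57 (0.00787) and ZNF101 0.49 (0.00179), both between HNT-34 and KG1a. The 3′ minus 5′ signal differed with treatment in AML-193 and HL60, the lines at the ends of most of these ranges. With it as a covariate 5 of the 12 were still called: ZNF468 (range 2.06, adjusted p = 0.0168), ZNF100 (1.32, 0.00671), ZNF665 (0.88, 0.00945), ZNF585A (0.55, 0.0201) and ZNF101 (0.50, 0.0122). The other 7 were not: ZNF431 (1.11, 0.181), ZNF682 (0.97, 0.0553), ZNF331 (0.76, 0.0701), ZNF93 (0.60, 0.0797), ZNF83 (0.52, 0.0699), ZNF600 (0.48, 0.154) and ZNF320 (0.47, 0.377). ZNF83 was also not called without s and x probe sets. The ranges with the covariate need not lie between the same lines as those without it. For ZNF665 the change in HL60 with the covariate was -0.20 (adjusted p = 0.506 by limma). Its retained call is therefore not evidence for the difference between HNT-34 and HL60 given above.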

How the results depend on the processing

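No paired analysis was possible because the labels give the arrays no replicate numbers. With the 3′ minus 5′ covariate, called genes numbered 0 in AML-193, 4 in HL60 and 7 for the difference between lines, ZNF320 in AML-193 turned to 0.04, and medians moved to -0.09 at 19q13.12 in AML-193 and 0.21 at 19q13.4 in HNT-34. Without s and x probe sets ZNF83 in HL60 turned to -0.08, and medians at 19p12 and 19q13.4 were -0.48 and -0.37 in AML-193, 0.10 and 0.13 in HNT-34, and 0.30 and 0.15 in HL60. With the mean of all probe sets they were 0.21 and 0.13 in HNT-34 and 0.05 and 0.15 in HL60, the 19q13.12 median in HNT-34 was 0.00, and 2 genes were called in KG1a. With no filter the 19p12 medians were -0.22 in AML-193 and 0.17 in HNT-34, and with a second quantile normalization 0.15 in HNT-34 and 0.07 in HL60. KG1a had 0 calls with no filter, with a trended prior and when fitted alone. The causes were not tested. Leaving out each array in turn gave 16 to 26 calls in AML-193, 6 to 11 in HNT-34, 0 to 1 in KG1a and 12 to 17 in HL60. Medians then ran at 19p12 from -0.37 to -0.20 in AML-193, 0.12 to 0.20 in HNT-34 and 0.02 to 0.26 in HL60, and at 19q13.4 from -0.27 to -0.08 in AML-193, 0.13 to 0.23 in HNT-34 and 0.22 to 0.37 in HL60. The fall of ZNF607 in KG1a was lost in 10 of these 16 fits, the rise of ZNF468 in HNT-34 in 4 and the fall of ZNF331 in AML-193 in 2. Over all alternatives, 47 counts moved by over 1.5 times and 31 medians by more than the spread, 31 changes or ranges of single genes lost their call and 2 turned, while 356 counts, 233 medians and 487 changes or ranges did none of these.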

Other observations

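Among the other zinc finger genes of chromosome 19, HL60 held changes in both directions that were as wide as those of the clustered genes. ZNF432 rose by 1.37 ± 0.10 on the log2 scale (SE; adjusted p = 6.40e-07 by limma) and the pseudogene ZNF137P by 0.93, while ZNF581 fell by 0.90 and ZNF649 by 0.87. In AML-193 ZNF134 rose by 0.99, and ZNF160 fell by 0.96, ZNF738 by 0.83 and ZNF223 by 0.74. The changes in HL60 and AML-193 are given without the 3′ minus 5′ covariate, although that signal differed with treatment in both lines. With the covariate 1.12% of all genes were called lower and 1.54% higher in AML-193, and 5.66% and 9.67% in HL60. In HNT-34 ZNF211 rose by 0.73 and ZNF580 by 0.63, while ZNF558 fell by 0.75 and ZNF792 by 0.67. ZNF558 also fell in KG1a, by 0.36. By the moderated F-test of limma, 65 of these 115 genes differed in their AZA change (56.5%), against 57.1% of all genes.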
